A study of Mus musculus with 5 samples.

Results

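Splenic plasma cells that carried B220, made IgM and were not dividing were compared by their uptake of 2NBDG. Plasma cells are B cells that have matured into secretors of antibody, B220 is the long CD45 isoform (encoded by Ptprc) that most of them lose, and 2NBDG is a fluorescent glucose analogue whose signal sorts cells that took it up from cells that did not. IgM plasma cells join their antibody into polymers with the J chain, and their endoplasmic reticulum (ER) is enlarged for folding, glycosylating and exporting it. Both groups were CD138-high, Ly6g- and CD11c- cells of unimmunized male C57Bl6/N mice aged 8 to 12 weeks: the first was B220+2NBDG+ and the second B220+2NBDG-. Each was 1 library of pooled cells from 3 mice, so there was no replicate error, no test was possible and no p-value is given. The members were chosen by their own counts: at least 10 unique molecular identifiers (UMIs, counted mRNA molecules) of heavy-chain constant genes, at least 70% of them Ighm, and at most 2 UMIs summed over 10 cell division genes. This kept 436 of 1126 cells of the 2NBDG+ library and 605 of 1222 cells of the 2NBDG- library, 1041 of the 5476 cells of all 5 libraries. Neither Ighm nor the division genes are used as a result.

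The division rule took far more cells from one side. It removed 5 of the 441 IgM cells of the 2NBDG+ library and 105 of the 710 IgM cells of the 2NBDG- library. Just inside and outside it, 13 IgM cells had 2 division UMIs and 2 had 3 in the 2NBDG+ library, against 37 and 14 in the 2NBDG- library. At the Ighm limit, 4 cells of the 2NBDG+ library and 1 of the 2NBDG- library had a share of 70% to 75%, and none in either had 65% to 70%. Members of the 2NBDG+ library were sampled more deeply, with a median of 4764.5 UMIs outside the immunoglobulin genes, against 3924 in the 2NBDG- library. Immunoglobulin genes took 64.1% of all UMIs in 2NBDG+ and 54.2% in 2NBDG- members. Levels below are CPM, the UMIs of a gene summed over a library's members and scaled to an equal sum of UMIs outside the immunoglobulin genes, and intervals are exact 95% intervals that cover counting error only. No member barcode was shared by the 2 libraries.

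The cells matched their label. Sdc1, which encodes CD138, had 538.9 CPM in 2NBDG+ and 457.6 CPM in 2NBDG- members, and Xbp1, the transcription factor of secretory cells, 3717 CPM and 3790 CPM. Ptprc itself was low in both, at 51.6 CPM (42.5 to 62.1) in 2NBDG+ and 80.1 CPM (69.7 to 91.7) in 2NBDG- members. B220 is a protein form that a count of transcript ends does not tell from other forms of CD45. Summed markers of neutrophils, erythroid cells, platelets and mast cells stayed below 3 CPM in both libraries, with S100a8, S100a9, Hba-a1, Pf4 and Cpa3 at 0. Those of dendritic cells came to 6.91 CPM in 2NBDG+ and 13.3 CPM in 2NBDG- members, with Itgax, which encodes CD11c, at 0.

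Of 3843 genes measured (those with 25 CPM and 50 UMIs or more in whichever library was higher), 40 were at least 2-fold higher in 2NBDG+ members (1.04%) and 64 at least 2-fold lower (1.67%). The median gene lay at a log2 ratio of -0.10. Without Jchain in the total, which shifted the median log2 ratio by 0.14, 58 genes were higher and 58 lower. Scaled to all UMIs, 10 were higher and 113 lower; that total shifted the median by -0.35 and also left only 2087 genes above the 25 CPM minimum, and 10 of the 40 and 48 of the 64 calls remained. Some of the calls followed a division of the libraries that matches neither gate. Over all cells, 17 genes were at least 2-fold apart between the B220+2NBDG- and splenic B220-2NBDG+ libraries on one side and the other 3 libraries on the opposite side, and all 17 are among the calls, 10 higher and 7 lower. They include Nme2, a nucleoside diphosphate kinase, at 193.9 CPM in 2NBDG+ and 18.99 CPM in 2NBDG- members, and the ribosomal pseudogene Rps18-ps3 at 5.53 CPM and 246.8 CPM. They are left out of the ranking below, which leaves 30 genes higher and 57 lower. Genes short of this rule can still follow the same division. In the IgM cells Grcc10 had 70.25 CPM in B220+2NBDG- and 78.68 CPM in B220-2NBDG+, against 161.2, 214.4 and 286.2 CPM in the other 3 libraries.

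The splenic B220- IgM cells, chosen by the same rule (558 cells with 2NBDG and 1071 without), share no library with the B220+ cells. Between them 0.951% of 3679 measured genes were 2-fold higher with 2NBDG and 1.41% lower. Of the 30 higher genes outside the split, 13 were also above a ratio of 1 there, 3 of them 2-fold (Mt2, Ifitm3 and Slpi), and 6 were 2-fold lower. Of the 57 lower genes, 53 were measured there, 30 below a ratio of 1 and 9 of them 2-fold, while another 9 were 2-fold higher. Pseudogenes by annotated gene type made up 15 of the 57, against 28 of the 3826 measured genes outside the split. In the B220- pair 13 of these 15 pointed the other way. The 42 other lower genes had a median log2 ratio of -0.38 there over the 38 measured. They still hold Rpl10-ps3 and Rpl9-ps6, which are named as pseudogenes but annotated as protein coding. Counts of pseudogenes that nearly match their parent genes are uncertain, and the part of read assignment in these values was not tested.

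**Figure D1:**
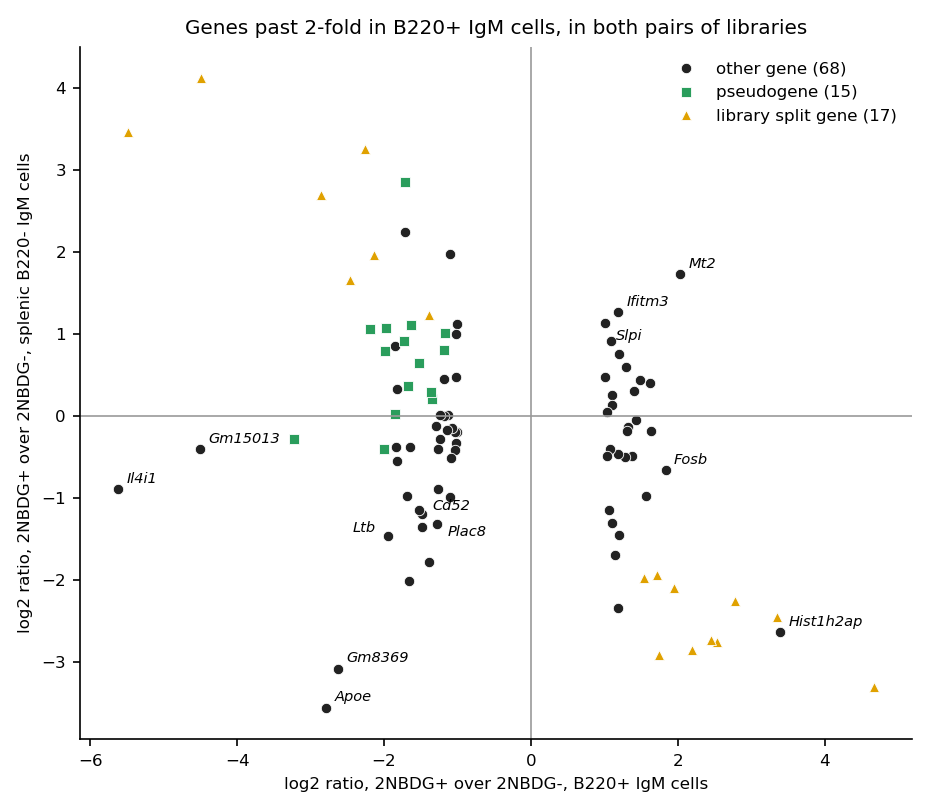
Each point is a gene at least 2-fold apart in B220+ IgM cells and measured in both pairs of libraries; the axes give its log2 ratio of CPM, 2NBDG+ over 2NBDG-, in B220+ (horizontal) and splenic B220- (vertical) IgM cells. The 17 genes of the library split lie in the 2 corners of opposite sign, while Mt2, Slpi, Ifitm3, Apoe, Gm8369, Cd52, Plac8 and Ltb lie in the corners of equal sign.

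Slpi, a secreted inhibitor of serine proteases, was the most abundant of the genes described here that were 2-fold higher in 2NBDG+ members. Slpi (ENSMUSG00000017002, chromosome 2, 164354070 to 164389095 in GRCm38, minus strand) had 7829 CPM (7712 to 7948) in 2NBDG+ and 3880 CPM (3805 to 3956) in 2NBDG- members, a ratio of 2.02 (1.97 to 2.07). Every 2NBDG+ member held a Slpi UMI, against 537 of the 605 2NBDG- members. With each cell thinned to 2000 UMIs, which left out 27 and 75 cells, the shares were 100% (99.1 to 100) and 76.8% (72.96 to 80.3). Of the 7 T cell-like barcodes of the 2NBDG- library, 3 held a Slpi UMI. Their median depth was 6918 UMIs and 1 of them was itself a member, so their shares give only a rough level for free RNA. The 2NBDG+ library had 0 such barcodes, so its free RNA could not be gauged this way. Its members held a median of 164.5 heavy-chain constant UMIs other than Ighm, against 13 in 2NBDG- members. The part of free RNA in the levels, the ratios and the shares of cells with a UMI, here and below, was not tested. The median cell had 5343 CPM in the 2NBDG+ and 1049 CPM in the 2NBDG- library, and the groups overlapped, with a lower quartile of 3627 CPM in 2NBDG+ and an upper quartile of 4066 CPM in 2NBDG- members. In the other libraries Slpi had 5921 CPM in B220-2NBDG+, 2693 CPM in B220-2NBDG- and 9194 CPM in bone marrow B220-2NBDG+ IgM cells. It was therefore lower in both 2NBDG- libraries than in each of the 3 2NBDG+ libraries. Restricted to cells of 3000 to 8000 UMIs, its log2 ratio was 0.82 in place of 1.01, and scaled to all UMIs it was 0.66, both short of 2-fold.

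**Figure D2:**
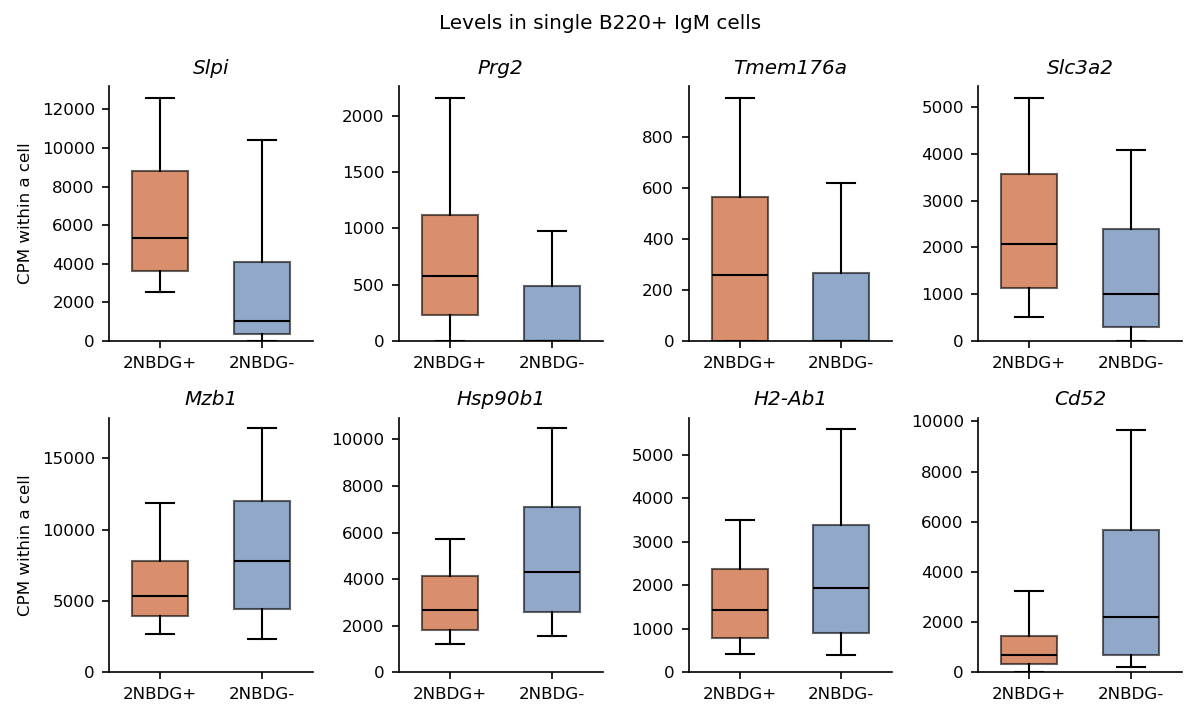
CPM within single B220+ IgM cells, 436 with 2NBDG (left boxes) and 605 without (right boxes); boxes span the quartiles, the line is the median and whiskers reach the 10th and 90th percentiles. The median is higher with 2NBDG for Slpi, Prg2, Tmem176a and Slc3a2, with medians of 0 for Prg2 and Tmem176a without it, and lower with 2NBDG for Mzb1, Hsp90b1, H2-Ab1 and Cd52.

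Tmem176a and Tmem176b are neighbouring genes of related membrane proteins, and their ratios were close. Tmem176a had 368.0 CPM (343.0 to 394.5) in 2NBDG+ and 173.5 CPM (158.0 to 190.2) in 2NBDG- members, a ratio of 2.12 (1.89 to 2.39). Tmem176b, at 354.7 and 180.0 CPM, had a ratio of 1.97 (1.76 to 2.21), just short of the limit. In the splenic B220- pair the ratios were 1.89 (1.76 to 2.03) and 1.87 (1.73 to 2.01), and both genes were highest in bone marrow, at 1164 and 1046 CPM. Thinned shares of cells with a Tmem176a UMI were 46.9% (42.0 to 51.9) in 2NBDG+ and 24.2% (20.6 to 28.0) in 2NBDG- members. Of the 7 T cell-like barcodes 1 held a Tmem176a UMI. In cells of 3000 to 8000 UMIs the log2 ratios were 0.85 for Tmem176a and 0.74 for Tmem176b, and scaled to all UMIs 0.74 and 0.63. The genes are transcribed away from each other, and their RefSeq starts lie 109 bases apart. The stretch below is the Tmem176a promoter (GRCm38.p6, chr6:48841233-48841532, plus strand, from RefSeq), shown because both genes start in it; capitals run from the Tmem176b start to the Tmem176a start.
Tmem176a: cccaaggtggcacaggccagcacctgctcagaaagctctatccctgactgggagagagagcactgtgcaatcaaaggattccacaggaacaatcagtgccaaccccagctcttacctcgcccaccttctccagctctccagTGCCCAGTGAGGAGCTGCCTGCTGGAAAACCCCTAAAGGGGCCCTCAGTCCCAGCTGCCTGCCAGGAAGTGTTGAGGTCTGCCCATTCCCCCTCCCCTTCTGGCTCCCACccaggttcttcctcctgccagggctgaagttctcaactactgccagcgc

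The metallothioneins are small proteins that bind zinc and copper. Mt2 (ENSMUSG00000031762, chromosome 8, 94172664 to 94173568) had 128 UMIs or 59.0 CPM in 2NBDG+ and 38 UMIs or 14.4 CPM in 2NBDG- members, a ratio of 4.09 (2.83 to 6.04). Mt1, its neighbour on the same strand, had 321 UMIs or 147.9 CPM and 346 UMIs or 131.4 CPM, a ratio of 1.13 (0.964 to 1.31). Only Mt2 was thus past the rule in B220+ cells, while in splenic B220- IgM cells both were higher with 2NBDG, Mt2 at 241.4 against 72.8 CPM and Mt1 at 494.3 against 180.6 CPM. Bone marrow IgM cells had the most of each, 733.4 and 2078 CPM. The Mt2 counts were uneven, with 40 of 128 UMIs in 5 cells of the 2NBDG+ library and 18 of 38 in 5 cells of the 2NBDG- library. Without those cells its log2 ratio was 2.42, and without cells called for the kappa gene Igkv3-4 it was 2.67. Both promoters are given because the genes are copies with a shared regulator, the metal-responsive factor. Capitals mark each match on either strand to TGCNCNC, a looser pattern than the core of its element, and no matches overlap. The windows are chr8:94172368-94172667 for Mt2 and chr8:94178839-94179138 for Mt1, plus strand, GRCm38.p6, from RefSeq.
Mt2: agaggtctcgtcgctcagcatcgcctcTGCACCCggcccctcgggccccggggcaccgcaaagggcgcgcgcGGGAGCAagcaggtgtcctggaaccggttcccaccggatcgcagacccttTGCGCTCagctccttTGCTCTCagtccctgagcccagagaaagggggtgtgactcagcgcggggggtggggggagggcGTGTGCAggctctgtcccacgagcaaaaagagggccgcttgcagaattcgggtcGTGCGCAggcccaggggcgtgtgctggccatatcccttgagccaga
Mt1: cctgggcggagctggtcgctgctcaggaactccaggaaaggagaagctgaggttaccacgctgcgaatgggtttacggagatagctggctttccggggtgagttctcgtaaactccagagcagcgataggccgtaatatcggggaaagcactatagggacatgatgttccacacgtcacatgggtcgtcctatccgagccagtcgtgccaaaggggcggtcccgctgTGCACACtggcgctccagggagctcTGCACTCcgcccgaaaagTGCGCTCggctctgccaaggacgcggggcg
The Mt2 window holds 6 matches to this looser pattern and the Mt1 window 3, and not all of them need hold the core itself. Of 32851 promoter windows of the same length, 51.0% hold at least 1 match, 7.10% at least 3 and 0.225% at least 6.

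**Figure D3:**
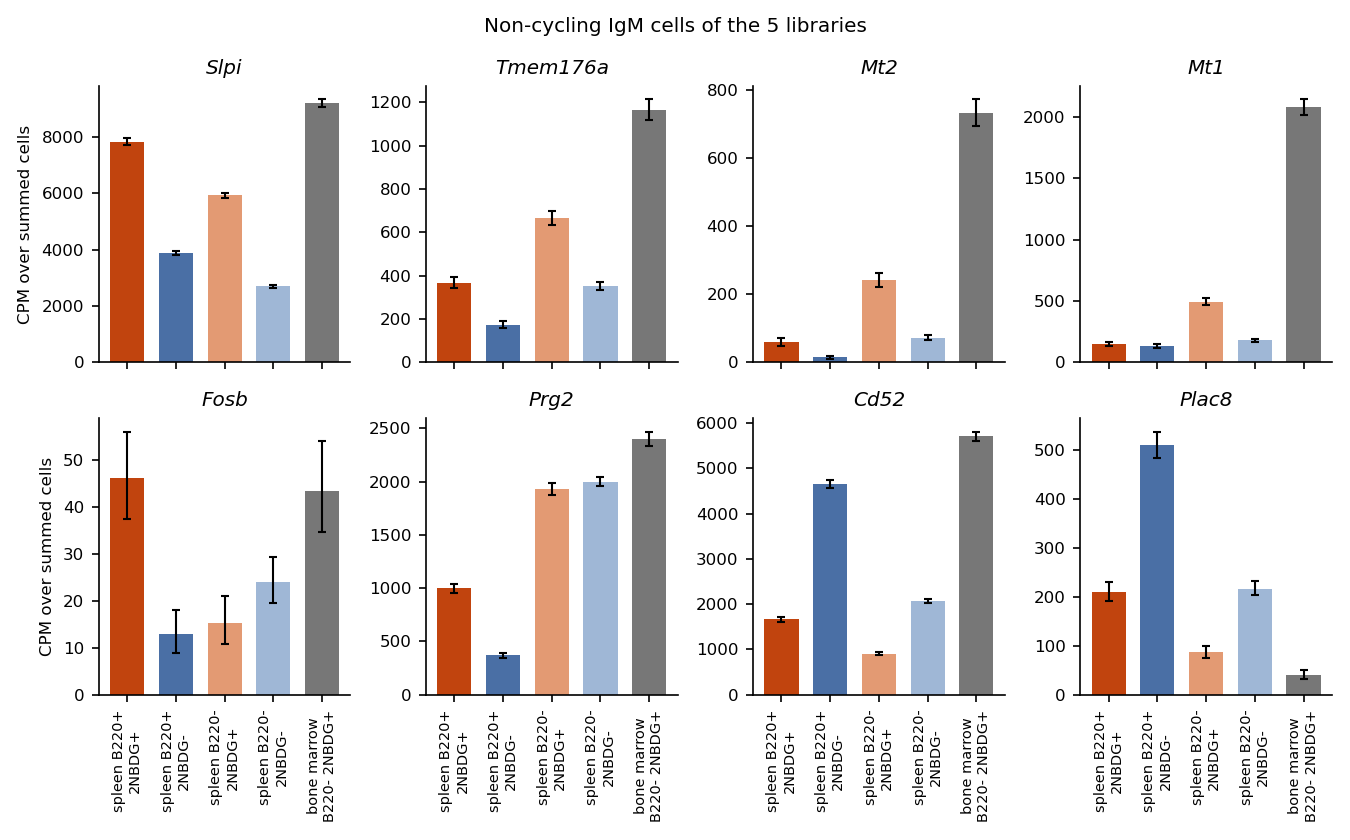
CPM over the summed non-cycling IgM cells of the 5 libraries, with exact Poisson 95% intervals of counting error as error bars. Slpi, Tmem176a and Mt2 were higher with 2NBDG in both splenic pairs, Cd52 and Plac8 lower in both, and Mt1, Fosb and Prg2 differed in the 2 pairs.

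Several other genes were higher in 2NBDG+ members of the B220+ pair alone by the 2-fold rule; the difference between the pairs was not tested. Prg2, the major basic protein of eosinophil granules that mouse plasma cells also transcribe, had 998.2 CPM (956.6 to 1041) in 2NBDG+ and 369.8 CPM (347.0 to 393.8) in 2NBDG- members, a ratio of 2.70 (2.50 to 2.91). It had 1934 CPM in B220-2NBDG+ and 1998 CPM in B220-2NBDG- cells, so B220+2NBDG- members stood apart with the lowest level of the 5 libraries. Thinned shares of cells with a Prg2 UMI were 66.8% (62.0 to 71.3) in 2NBDG+ and 33.8% (29.8 to 38.0) in 2NBDG- members, with 1 of 7 T cell-like barcodes. Fosb, a subunit of the AP-1 transcription factor induced within minutes of stimulation, had 100 UMIs in 2NBDG+ and 34 UMIs in 2NBDG- members, a ratio of 3.57 (2.40 to 5.43). In the B220- pair its ratio was 0.635 (0.423 to 0.935). Like Grcc10, Fosb was lowest in the B220+2NBDG- and B220-2NBDG+ IgM cells, at 12.91 and 15.24 CPM. It had 46.06 CPM in B220+2NBDG+, 24.01 CPM in B220-2NBDG- and 43.46 CPM in bone marrow IgM cells. The part of the library division in its ratios was not tested. Crb3, a polarity protein of epithelia, was 3.08-fold higher (1.93 to 5.05) on 66 UMIs in 2NBDG+ and 26 UMIs in 2NBDG- members. Cebpb, a transcription factor of stress and inflammation, was 2.05-fold higher (1.76 to 2.38), with 218.3 CPM in 2NBDG+ and 106.7 CPM in 2NBDG- members. As with Prg2, the 106.7 CPM was the lowest of the 5 libraries, the others having 145.7 CPM or more. Its log2 ratio was 0.93 in cells of 3000 to 8000 UMIs and 0.68 scaled to all UMIs.

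Smaller counts stand behind the rest of the ranked higher genes. Stom, Zfp467, Hist4h4, Macrod1 and Rmdn1 had 55 to 89 UMIs in 2NBDG+ and 25 to 44 UMIs in 2NBDG- members, with ratios of 2.43 to 2.81. Eif4e3, a cap-binding protein, had 43 of its 72 UMIs in 5 cells, and its log2 ratio of 1.32 was 0.23 without them. Cox6a2, a cytochrome oxidase subunit that plasmacytoid dendritic cells also express, had 124 and 58 UMIs, a ratio of 2.59 (1.88 to 3.61). The 7 markers of those cells summed to 523.7 CPM in 2NBDG+ and 465.2 CPM in 2NBDG- members, led by Bst2 at 315.1 and 263.1 CPM, with Siglech and Clec10a at 0 in both; their part in the result was not tested. The log2 ratio of Cox6a2, 1.38, was 2.35 without the 5 cells with most UMIs on each side and 0.72 in cells without any division UMI. Hist1h2ap, a histone gene, had the highest ratio, 10.5 (5.26 to 23.9) on 78 and 9 UMIs, but in the B220- pair it was 6.21-fold lower with 2NBDG, as were genes of the library split. Bloc1s1 (2.97-fold higher) and Grcc10 (2.30-fold higher) also had the opposite sign there, with log2 ratios of -0.98 and -1.45. Bloc1s1 too was lowest in the B220+2NBDG- and B220-2NBDG+ IgM cells, at 34.55 and 63.44 CPM, against 98.04 CPM or more in the others.

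**Figure D4:**
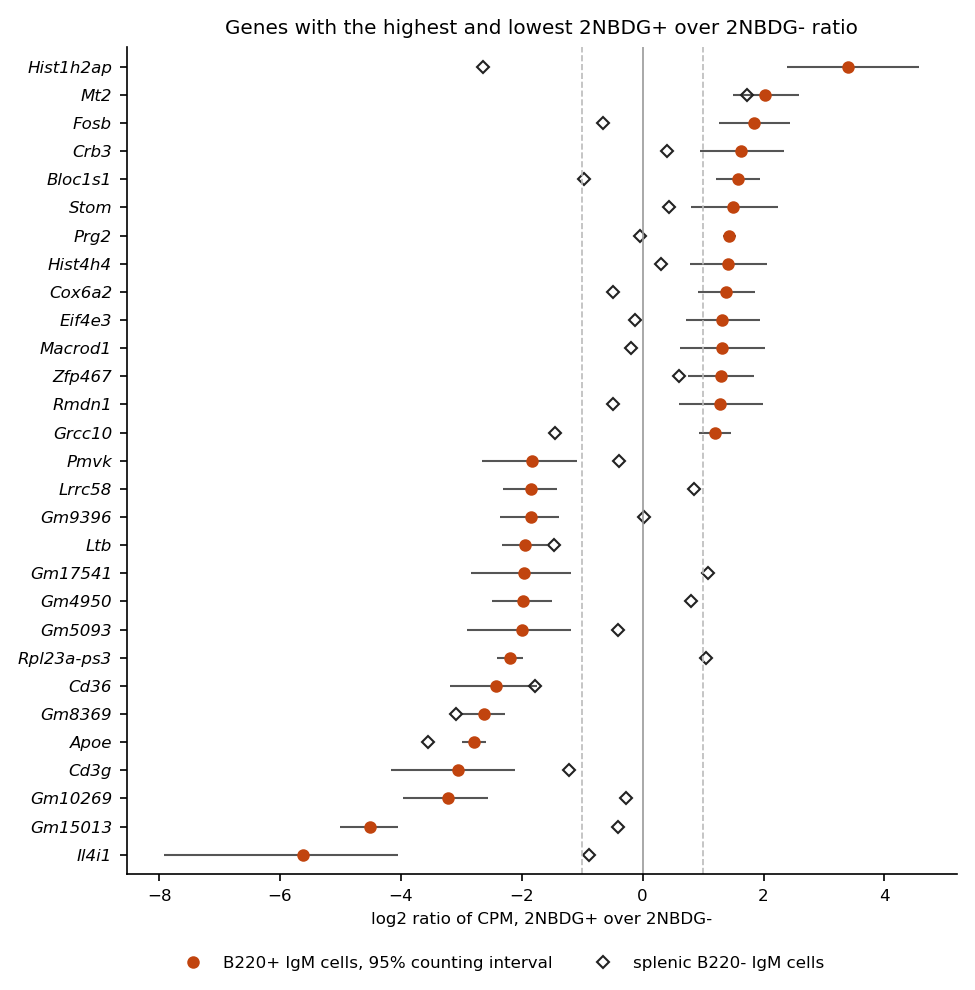
Log2 ratio of CPM, 2NBDG+ over 2NBDG-, for genes among the 15 highest and 15 lowest past the 2-fold rule in B220+ IgM cells (filled points, lines are 95% counting intervals) and the same genes in splenic B220- IgM cells (open diamonds). Of the plotted genes higher with 2NBDG only Mt2 was also past 1 in the B220- cells, while Ltb, Cd36, Gm8369, Apoe and Cd3g were below -1 in both. Cd36 and Cd3g had a mean under 10 CPM in the B220- cells, too low to count as measured there.

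Cd52, Plac8, Ltb, Gm8369 and Bcl2l11 were among the genes 2-fold lower in 2NBDG+ members. Cd52, a small anchored glycoprotein of lymphocytes, had 1667 CPM (1614 to 1723) in 2NBDG+ and 4651 CPM (4569 to 4734) in 2NBDG- members, 2.79-fold lower (2.69 to 2.90). Its median cell had 691.3 CPM in the 2NBDG+ and 2203 CPM in the 2NBDG- library. With 2NBDG it was also 2.28-fold lower (2.18 to 2.40) in splenic B220- cells, yet bone marrow B220-2NBDG+ cells had 5705 CPM, more than any splenic library. Plac8, a cysteine-rich protein high in B-1 and innate-like lymphocytes, was 2.43-fold lower (2.18 to 2.71), with 209.6 CPM in 2NBDG+ and 509.2 CPM in 2NBDG- members, and 2.48-fold lower in the B220- pair. Ltb, the membrane anchor of lymphotoxin, was 3.84-fold lower (2.98 to 5.01) and 2.76-fold lower in the B220- pair. Gm8369 was 6.17-fold lower (4.82 to 7.98) on 73 and 546 UMIs, and 8.47-fold lower in the B220- pair. Bcl2l11, which encodes the cell death protein Bim, had 38.2 CPM in 2NBDG+ and 123.4 CPM in 2NBDG- members, 3.23-fold lower (2.53 to 4.16), and was 1.97-fold lower in the B220- pair.

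For some genes with large ratios, many of the UMIs came from few cells. Apoe, the lipid carrier, had 235 UMIs in 2NBDG+ and 1971 UMIs in 2NBDG- members, 6.91-fold lower (6.04 to 7.95). Of the 1971 UMIs 1171 came from 5 cells, and without the 5 highest cells on each side its log2 ratio was -2.52 in place of -2.79. It was 11.8-fold lower (9.29 to 15.1) in the B220- pair. Il4i1, a secreted amino acid oxidase, had 3 UMIs in 2NBDG+ and 179 UMIs in 2NBDG- members, a ratio of 0.0203 (0.00415 to 0.0604), with 129 of the 179 in 1 cell; without the 5 highest cells the log2 ratio was -2.04 in place of -5.62. Cd3g, part of the T cell receptor complex, had 10 and 101 UMIs, 33 of them in 1 cell of the 2NBDG- library. Without the 5 highest cells on each side its log2 ratio was -3.31 in place of -3.06. The other 9 T cell markers summed to 8 UMIs in 2NBDG+ and 45 UMIs in 2NBDG- members, with Trac and Trbc1 at 0 in both. With cells holding 2 or more UMIs of T cell, macrophage, neutrophil or erythroid markers left out, Cd3g itself included, the log2 ratio of Cd3g was 0.18. Cd68, a lysosomal protein that is also a macrophage marker, was 2.36-fold lower (1.59 to 3.57), and Csf1r and Adgre1 were at 0 in both libraries; with the same cells left out, a filter that counts Cd68 itself, its log2 ratio was -0.14. The part of T cells and macrophages in other results was not tested.

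Gm15013, an annotated coding gene on chromosome X (139713681 to 139714481), had 40 UMIs in 2NBDG+ and 1102 UMIs in 2NBDG- members, spread over 428 of the 605 cells. Its level was 418.4 CPM in B220+2NBDG- cells and 18.4 to 26.7 CPM in the IgM cells of the other 4 libraries, so it marked that library alone. The pseudogene Gm10269 had 20 and 227 UMIs.

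Most genes of antigen presentation lay below a ratio of 1, but few were 2-fold lower. Of 9 measured MHC class II genes, 8 were below a ratio of 1, 1 of them by 2-fold, and the list's median log2 ratio was -0.58. Over all 5838 genes with a mean of at least 10 CPM the median was -0.09, 39.4% were above 1, 1.15% were 2-fold higher and 1.78% 2-fold lower; the lists below are read against these values. H2-Aa had 372.7 CPM in 2NBDG+ and 728.7 CPM in 2NBDG- members, 1.96-fold lower (1.80 to 2.13), H2-Eb1 was 1.94-fold lower, and the invariant chain Cd74 had a log2 ratio of -0.28. The loading subunit H2-DMb2 was past the rule, on 17 and 73 UMIs. In the B220- pair the same 9 genes had a median of -0.76 with 8 below 1. H2-Eb2 was the 1 class II gene above 1, at a log2 ratio of 0.35. MHC class I genes had a median of -0.42 with 4 of 17 above 1, and 1 of the 17, Calr, was 2-fold lower; the median was 0.01 in the B220- pair. Of 19 B cell identity genes 17 were below 1 (median -0.28): the surface protein Ms4a1 (CD20) had 83.4 CPM in 2NBDG+ and 146.2 CPM in 2NBDG- members, and the B cell transcription factor Ebf1 20.3 and 34.9 CPM. Pax5, the factor that keeps B cells from becoming plasma cells, had 1 UMI in 2NBDG+ and 0 in 2NBDG- members. Interferon-induced genes were divided: Ifitm3, which blocks virus entry, was 2.27-fold higher (1.80 to 2.89), with a log2 ratio of 0.84 scaled to all UMIs, and Isg15, a ubiquitin-like protein, 3.56-fold lower (2.45 to 5.30).

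Genes of the secretory route were mostly below 1 in 2NBDG+ members, and few were 2-fold lower. Of 36 measured genes of the unfolded protein response and ER folding 29 were below 1 (median -0.28), of 45 of ER translocation and vesicle transport 40 (median -0.30), and of 29 of the hexosamine pathway and N-glycosylation 27 (median -0.41). The ER chaperone Hsp90b1 had 3404 CPM (3327 to 3483) in 2NBDG+ and 6008 CPM (5915 to 6103) in 2NBDG- members, 1.77-fold lower (1.72 to 1.81). Calr, the lectin chaperone of new glycoproteins, was 2.00-fold lower (1.88 to 2.14), with log2 ratios of -0.83 to -1.35 across the totals and cell filters tried, and the oligosaccharyltransferase subunit Rpn1 had a log2 ratio of -0.70. Uggt1, which checks the folding of glycoproteins, had a log2 ratio of -1.04 on 18 UMIs in 2NBDG+ and 45 UMIs in 2NBDG- members, too few for the rule. Mzb1, a cochaperone of IgM assembly, had 6991 CPM in 2NBDG+ and 10059 CPM in 2NBDG- members, while Jchain, which the same antibody needs, took 22.3% of UMIs outside the immunoglobulin genes in 2NBDG+ and 14.7% in 2NBDG- members. Of the 36 proteasome genes 33 were below 1, with a median of -0.26. In the B220- pair none of these lists departed as far, with medians of -0.04, 0.07 and -0.07 for the 3 secretory lists and 0.01 for the proteasome. The medians of these 4 lists and of both MHC lists stayed below 0 with every total and cell filter tried, but without Jchain in the total they lay between -0.12 and -0.44, where all genes had 0.03.

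**Figure D5:**
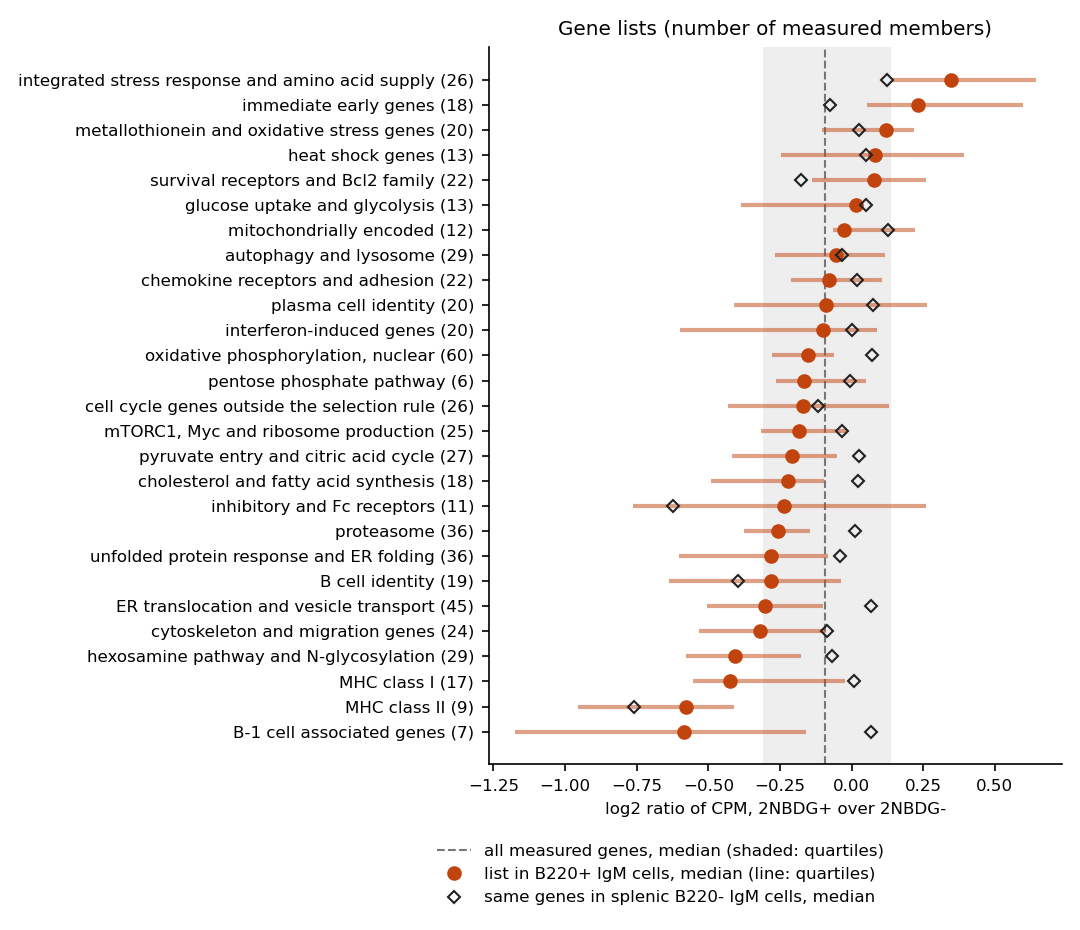
Median log2 ratio of CPM, 2NBDG+ over 2NBDG-, of 27 gene lists in B220+ IgM cells (filled points, lines are quartiles of the members) and of the same genes in splenic B220- IgM cells (open diamonds); the dashed line and shading are the median and quartiles of all 5838 measured genes. The integrated stress response list is highest at 0.35, and the MHC class II and B-1 lists are lowest at -0.58 and -0.59.

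Genes of the integrated stress response, which raises amino acid uptake and synthesis through the factor Atf4, pointed the other way. Of 26 measured, 21 were above 1 (80.8%) and the median was 0.35, or -0.00 when scaled to all UMIs, where all genes had -0.45. Slc3a2, the shared heavy chain of amino acid transporters, had 2720 CPM (2651 to 2790) in 2NBDG+ and 1670 CPM (1621 to 1720) in 2NBDG- members, a ratio of 1.63 (1.57 to 1.69). Its partner Slc7a5 had 181.0 CPM in 2NBDG+ and 113.9 CPM in 2NBDG- members, and Chac1, which degrades glutathione, 53.9 and 27.7 CPM. Asparagine synthetase Asns had 197.2 and 137.1 CPM, while Ddit3, the proapoptotic factor CHOP, had 41.0 and 36.5 CPM. Slc3a2 was also higher with 2NBDG in the B220- pair, by 1.27-fold (1.23 to 1.31), and Asns by 1.55-fold (1.37 to 1.74). Of 18 immediate early genes 15 were above 1, with a median of 0.23, or -0.12 when scaled to all UMIs; the B220- pair had 7 above 1. Ier2, Dusp1 and Rhob followed Fosb with log2 ratios of 0.77, 0.79 and 0.88, while Egr1 was at -0.45. Among heat shock genes, Hspa1a was 2.30-fold higher (1.85 to 2.86) and Hspb1 2.05-fold (1.49 to 2.86), and scaled to all UMIs their log2 ratios were 0.85 and 0.69. The list's median of 0.08 was -0.27 on that scale.

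Transcripts of glucose uptake and breakdown were not raised as a list in the cells that took up the glucose analogue. Slc2a1, which encodes the transporter GLUT1, had 14 UMIs in 2NBDG+ and 34 UMIs in 2NBDG- members, 2.00-fold lower (1.05 to 4.04), and hexokinase Hk2 16 and 35 UMIs, 1.80-fold lower (0.972 to 3.49). Both are too low for the rule. The 13 measured genes of uptake and glycolysis had a median of 0.02 with 7 above 1 and none 2-fold apart; Pgk1 was at 0.69, and Eno1, Pkm and Gapdh at -0.62, -0.53 and -0.38. Of 27 genes of pyruvate entry and the citric acid cycle 6 were above 1 (median -0.21), and of 60 nuclear genes of oxidative phosphorylation 7 (median -0.15). In the B220- pair 14 of the 27 and 42 of the 60 were above 1. The 12 measured mitochondrially encoded genes were divided, 6 above and 6 below 1. Those above include mt-Atp8 of the library split, at a log2 ratio of 1.74, and mt-Atp6, which had 8194 CPM in both libraries.

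Of 20 measured plasma cell identity genes 9 were above 1 and none was 2-fold apart, with a median log2 ratio of -0.09 and quartiles of -0.41 and 0.26. Prdm1 and Irf4, which drive the plasma cell state, had log2 ratios of 0.11 and 0.07, and the survival receptor Tnfrsf17 (BCMA) 0.35. The transcription factors Creb3l2, Pou2af1 and Bhlha15 had -0.44, -0.40 and -0.26. Ly6c2, a surface antigen, had 898.7 CPM in 2NBDG+ and 590.8 CPM in 2NBDG- members, but 580 and 337 of its UMIs came from 5 cells of each library. The chemokine receptor Cxcr3 was 1.81-fold lower (1.42 to 2.33), with 44.2 CPM in 2NBDG+ and 80.1 CPM in 2NBDG- members, and had 6.18 CPM or less in the IgM cells of the other 3 libraries. The lists of survival, adhesion, autophagy, cholesterol synthesis, pentose phosphate, redox, cytoskeleton, inhibitory receptor, growth and remaining cell cycle genes had medians between -0.32 and 0.12. Among B-1 associated genes, 3 of 7 were 2-fold lower: Plac8, Anxa2 on 15 and 51 UMIs, and Ctla4 on 20 and 51 UMIs. The marker Spn (CD43) had a log2 ratio of -0.59, while Cd9, Lgals1 and Bhlhe41 had -0.18, -0.14 and 0.07. In the B220- pair the list had a median of 0.07 with 4 of 7 above 1.

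In the IgG cells of the same 2 libraries, 538 with and 329 without 2NBDG, the leading genes had these log2 ratios: Slpi 0.41, Tmem176a 0.90, Mt2 1.68, Fosb 1.95, Prg2 0.52, Cd52 -1.27, Plac8 0.13 and Hsp90b1 -0.68. The comparisons share their libraries, so the values are set side by side only.

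The 2 groups differed in their light chains. A kappa variable gene could be called in 285 of 436 2NBDG+ and 372 of 605 2NBDG- members. Igkv3-4 was called in 147 cells or 51.6% (45.6 to 57.5) of those called in the 2NBDG+ library and in 108 or 29.0% (24.5 to 33.9) in the 2NBDG- library. In splenic B220- IgM cells its share was 60.7% (54.4 to 66.7) with and 14.5% (12.1 to 17.1) without 2NBDG, and in bone marrow 2.65%. Igkv5-39 followed with 57 cells (15.5% to 25.1%) in the 2NBDG+ and 54 cells (11.1% to 18.5%) in the 2NBDG- library. Lambda, called from Iglc2, marked 1 of 435 called 2NBDG+ members, or 0.230% (0.00582 to 1.27), and 10 of 599 2NBDG- members, or 1.67% (0.803 to 3.05). Clones of the 3 pooled mice and the 2NBDG gate cannot be told apart in these shares. The number of kappa variable UMIs per cell differed too, with a median of 486 in 2NBDG+ and 47 in 2NBDG- members, but it followed the library division of the 17 genes above: the median was 119.5 in B220-2NBDG+, 564 in B220-2NBDG- and 535.5 in bone marrow IgM cells. Cells called for another kappa gene held a median of 30 and 2 Igkv3-4 UMIs, a measure of free RNA, against 541 and 64 in Igkv3-4 cells. Without the Igkv3-4 cells 34 genes were higher and 77 lower, and 29 of the 40 and 60 of the 64 remained.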

How the data were processed

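Sorted plasma cells were profiled with the 10x Genomics 3' chemistry, version 2. Reads were processed with Cell Ranger 2.1 against GRCm38, per the submitters' processing notes; the sources used here do not give the annotation or barcode filter. The deposited tables hold raw UMI counts for 33456 genes per cell, of which 32655 matched GENCODE M21, the source of symbols, coordinates and 266 immunoglobulin genes. The B220+2NBDG+ library held 15591435 UMIs, the B220+2NBDG- library 12635338 and the other 3 between 9451886 and 14664193. UMIs were summed over the members of a library and divided by the sum outside immunoglobulin genes. A gene was called at 25 CPM, 50 UMIs and a 2-fold ratio, with counts under 3 UMIs raised to 3. Ratio intervals are exact conditional binomial, those of CPM exact Poisson and those of shares Clopper-Pearson; reads of 1 library a side give no test. List members needed a mean of 10 CPM. A kappa variable gene needed 5 UMIs and 70% of its class. T cell-like barcodes had 3 or more UMIs of T cell markers other than Cd3g. The text names the 15 highest and 15 lowest genes outside the library split, up to 4 members per list with the largest log2 ratio, and a fixed set, except some not reported here; other genes were named after their values were seen. The members, lists and rules were chosen with earlier results of these data known. Alternatives changed the total, filters, fold, and cells kept. Ratios were checked on simulated counts. Python 3.11.15, scipy 1.17.1 and edgeR 4.0.16 (TMM factors) were used, and Scrublet in scanpy 1.11.5 called 77 doublets, which were kept.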

Additional observations from a re-analysis of the deposited data

Results flagged for a closer look

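For 3 of the named genes outside the library split, the ratio passed the 2-fold rule in both splenic pairs with opposite signs; with 1 library per group the difference between the pairs was not tested. Grcc10 had a log2 ratio of 1.20 with 2NBDG in B220+ IgM cells and -1.45 in B220- IgM cells. Its levels in IgM cells divided the libraries as the split genes do. They were 70.25 CPM in B220+2NBDG- and 78.68 CPM in B220-2NBDG+, against 161.2 CPM in B220+2NBDG+, 214.4 CPM in B220-2NBDG- and 286.2 CPM in bone marrow. The pseudogenes Gm17541 and Rpl23a-ps3 had -1.97 and -2.20 in B220+ cells, against 1.08 and 1.06 in B220- cells. The 17 genes of the library split show the same reversal by the way they were chosen.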

How the results depend on the processing

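The counts of 40 genes higher and 64 lower moved by more than 1.5 times under 4 settings: scaled to all UMIs they were 10 and 113, at 10 CPM and 20 UMIs 117 and 154, with no filter on low counts 567 and 493, and at 1.5-fold 127 and 286. TMM factors, the mean over cells, 90% Ighm, 0 division UMIs, doublets left out, the depth window, cells with markers of other types, the most frequent heavy-chain variable gene and the split genes gave 30 to 48 higher and 57 to 74 lower. Of the 45 named genes past 2-fold, 1 reversed: Cd3g, at 0.18 without cells with markers of other types, a setting that removes Cd3g-bearing cells by its construction. Of the 45, 34 were still 2-fold when scaled to all UMIs and 38 in cells of 3000 to 8000 UMIs. Leaving out Igkv3-4 cells, or a gene's 5 highest cells, was chosen after the data were seen. Heavy-chain variable genes were called in 29 and 3 members only, so leaving out the most frequent one removed 9 and 2 cells. Depth limits genes such as Slc2a1, where 14 against 34 UMIs leave an interval of 1.05-fold to 4.04-fold lower. No replicate could be left out, and no paired analysis was possible because each group had 1 library.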
